A study of Mus musculus with 7 samples.

Results

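Cells that copy their DNA need deoxynucleotides, and cells that grow need ribonucleotides for RNA. The purine and pyrimidine rings are built de novo on activated ribose or recovered from bases and nucleosides by salvage. Ribonucleotide reductase turns ribonucleotides into deoxynucleotides, and folate-bound one-carbon units feed both the purine ring and thymidylate. In T cells these pathways are known for being switched on when a resting cell enters division.

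The 35 genes described here encode enzymes of these pathways. They were taken by symbol from a table of 51138 mouse genes, and all 35 were found and had enough counts to be tested. By role, 9 act on deoxynucleotides, 17 on de novo synthesis (5 in pyrimidine synthesis, 2 that make activated ribose, 6 that build the purine ring and 4 at its branch to AMP and GMP), 4 are nucleotide kinases and 5 are folate enzymes.

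RNA was sequenced from regulatory T cells (Tregs), which hold immune responses in check, sorted from the spleens of C57/BL6 mice. All of the mice carried a red fluorescent reporter of Foxp3 (RFP-FoxP3+), so the sort rests on reporter expression. In the FP group (4 samples) the mice had been injected with 20 ug of FP, a fusion protein of interleukin-2 and its receptor chain CD25. The control group (3 samples) had been given 100 uL of PBS, and in both groups the cells were taken 72 h after the injection. The comparison asks which transcripts of splenic Tregs differ at that time. Whether the samples of a group came from different animals is not stated, and p values reflect only how far these samples vary. In bulk RNA, fewer cells of a type and less RNA per cell cannot be told apart.

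The libraries held 9956509 to 13429878 counts on genes. Tests were made with edgeR's quasi-likelihood test over 15954 genes, with Benjamini-Hochberg adjustment over all of them and a threshold of 0.05. Levels are CPM (counts scaled to a common library total) on library sizes scaled by trimmed mean of M values (TMM), and fold changes are FP over PBS. The defining Treg gene Foxp3 had 484, 596, 572 and 508 CPM in FP replicates 1 to 4, and 490, 498 and 484 CPM in PBS replicates 1 to 3. All 10 Treg and T cell markers looked up were tested, and 6 were higher while 4, Foxp3 among them, did not pass. Their summed level was 6072 to 7341 CPM after FP and 3991 to 4552 CPM after PBS, which is not a measure of the share of Tregs. The 14 proliferation markers summed to 4564, 4698, 4279 and 2585 CPM in FP replicates 1 to 4, and to 578, 497 and 444 CPM in PBS replicates 1 to 3. FP replicate 4 therefore had the lowest proliferation signal of its group. Of 18 macrophage and monocyte markers 17 were tested and all 17 were lower after FP, with summed levels of 46.7 to 188 CPM after FP and 953 to 2337 CPM after PBS. Of 12 B cell markers 11 were tested, 2 higher and 3 lower, with sums of 459 to 575 CPM after FP and 396 to 443 CPM after PBS. The part of these other cells in the results on the enzymes was not tested.

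Promoters of the enzymes with the smallest p among the deoxynucleotide and the de novo members are printed here, since these are the 2 groups set against each other. Of the 35 genes, 32 had an entry in the RefSeq promoter table (GRCm38.p6); Rrm2b, Pfas and Dhodh did not. Each line gives the 250 bases before the start annotated by RefSeq, which can differ by some bases from the GENCODE coordinates given for the genes (in Rrm2 and Adss the last bases lie inside the GENCODE gene), 5′ to 3′, and capitals mark a CCAAT box or an E-box.
Rrm2 promoter, chr12:24708004-24708253, plus strand: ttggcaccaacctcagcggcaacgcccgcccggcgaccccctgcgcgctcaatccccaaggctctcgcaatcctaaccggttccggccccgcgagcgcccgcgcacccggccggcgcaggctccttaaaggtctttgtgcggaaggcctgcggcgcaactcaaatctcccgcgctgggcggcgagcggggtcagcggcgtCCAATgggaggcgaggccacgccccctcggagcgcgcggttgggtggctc
Rrm1 promoter, chr7:102441445-102441694, plus strand: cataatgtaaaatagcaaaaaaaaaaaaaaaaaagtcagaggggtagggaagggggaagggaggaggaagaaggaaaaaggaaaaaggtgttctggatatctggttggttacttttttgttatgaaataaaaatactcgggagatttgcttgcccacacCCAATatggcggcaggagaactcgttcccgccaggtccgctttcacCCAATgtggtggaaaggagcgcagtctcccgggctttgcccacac
Tyms promoter, chr5:30073626-30073875, minus strand: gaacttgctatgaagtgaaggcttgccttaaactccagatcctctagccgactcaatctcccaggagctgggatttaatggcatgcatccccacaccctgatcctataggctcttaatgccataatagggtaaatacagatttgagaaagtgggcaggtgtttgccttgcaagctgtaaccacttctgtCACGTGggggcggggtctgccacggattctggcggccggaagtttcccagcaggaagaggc
Paics promoter, chr5:76951052-76951301, plus strand: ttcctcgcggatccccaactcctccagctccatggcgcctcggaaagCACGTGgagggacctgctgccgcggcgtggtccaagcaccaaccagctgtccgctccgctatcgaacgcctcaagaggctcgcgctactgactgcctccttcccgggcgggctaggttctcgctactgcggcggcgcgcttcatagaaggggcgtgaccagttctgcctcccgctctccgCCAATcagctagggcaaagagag
Adss promoter, chr1:177796510-177796759, minus strand: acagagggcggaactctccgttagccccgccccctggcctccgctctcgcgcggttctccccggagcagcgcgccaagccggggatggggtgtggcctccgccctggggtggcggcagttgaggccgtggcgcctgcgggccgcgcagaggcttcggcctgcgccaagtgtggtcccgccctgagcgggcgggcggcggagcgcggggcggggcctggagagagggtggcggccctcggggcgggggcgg
The promoter of Rrm2 had a CCAAT box beginning 50 bases before the start, and that of Rrm1 had CCAAT boxes at 91 and 45 bases. An E-box stood at 61 bases in Tyms and at 203 bases in Paics, which also had a CCAAT box at 23 bases. The promoter of Adss held no match.

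The motifs searched, on both strands, were CCAAT, the E-box CACGTG and the E2F site as TTTCCCGC, TTTCGCGC, TTTGCCGC or TTTGGCGC, and no matches overlapped in the printed sequences. CCAAT was found for 12 of the 32 genes (37.5%), beside 37.5% of the 27025 genes with a promoter. The E-box, a sequence bound by MYC among other factors, was found for 6 of 32 genes (Tyms, Dtymk, Atic, Impdh2, Paics and Nme1), beside 6.86% of all genes. The E2F letters were found for 1 of 32 (Ppat), beside 2.16% of all genes, and for none of the 8 deoxynucleotide genes with an entry. A match describes these letters in this window and is not a measured site of binding. Sequences that differ from the searched letters by a base were not counted, so a lack of matches does not show a lack of sites.

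After FP, 23 of the 35 enzymes rose, 1 fell and 11 did not pass, where 21.0% of all genes tested were higher, 18.5% lower and 39.5% called either way. The median log2 fold change was 0.55 over the 35 enzymes and -0.05 over all genes tested. Deoxynucleotide genes had the highest median, 1.26, against 0.49 for the 17 de novo genes, 0.92 for the kinases and 0.49 for the folate genes. A rise of at least 2-fold was found for 9 enzymes and a smaller one for 14; of all genes tested, 7.89% had a log2 fold change above 1. FP and PBS libraries did not overlap in 21 enzymes that were higher and 2 that were lower, where this held for 23.2% and 23.5% of all genes.

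**Figure D1:**
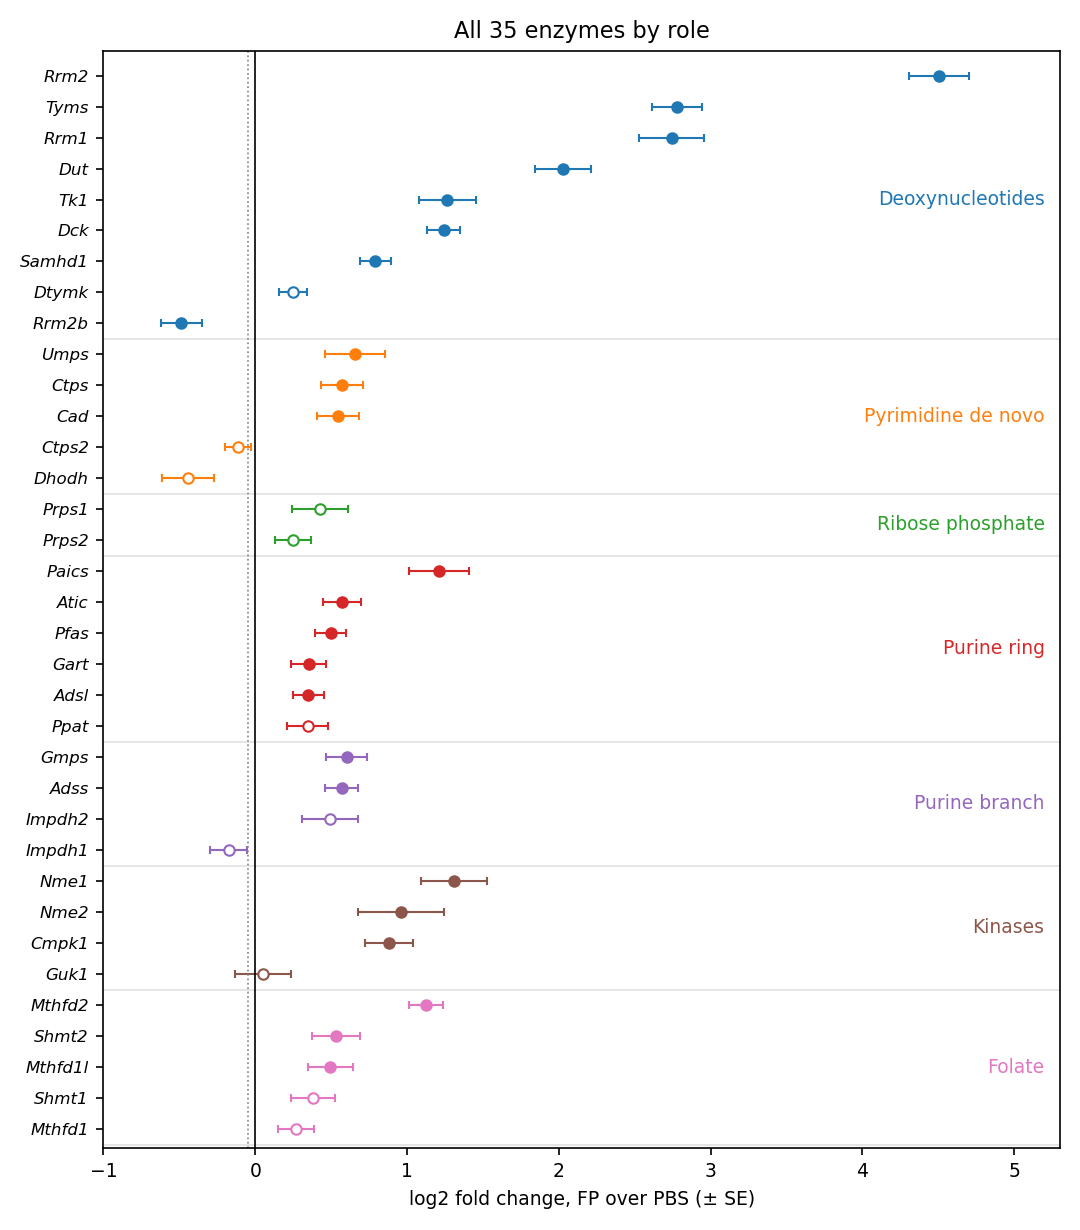
Log2 fold change of each of the 35 enzymes, FP over PBS (x axis), with the standard error as bars, grouped by role down the page. Filled points passed the test and open points did not; the dotted line is the median of all genes tested (-0.05). Rrm2, Tyms, Rrm1 and Dut lie furthest to the right, between 2.03 and 4.51, and the de novo genes lie between -0.44 and 1.21.

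These counts depend on the scaling of the libraries. Of all called genes, 53.2% were higher with TMM factors, 33.2% with scaling to the upper quartile and 28.6% when library size alone was used. These other scalings moved the median of all genes to -0.25 and -0.31. Under them 18 and 15 of the enzymes rose and 4 fell in each case (Rrm2b, Dhodh, Ctps2 and Impdh1). Umps, Gart, Adsl, Shmt2 and Mthfd1l lost their call under both, and Cad, Ctps and Pfas with library size alone. Over the 15954 genes, 2399 were higher and 4823 lower with upper-quartile scaling, and 2023 were higher and 5046 lower by library size. Of the 24 calls, 14 held under every scaling, test, filter and left-out library: Rrm1, Rrm2, Tyms, Tk1, Dut, Dck, Samhd1, Paics, Atic, Gmps, Adss, Nme1, Cmpk1 and Mthfd2.

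Ribonucleotide reductase, which reduces ribonucleotides to deoxynucleotides, is built from a large subunit (Rrm1) and a small one. The small subunit Rrm2 (ENSMUSG00000020649.11, GRCm38 chromosome 12, 24708241 to 24714146, plus strand), which is made in S phase, had 182, 221, 220 and 135 CPM in FP replicates 1 to 4. It had 8.83, 8.50 and 7.62 CPM in PBS replicates 1 to 3. Rrm2 was the enzyme with the highest fold change of the 35: it rose 22.7-fold (log2 4.51, SE 0.20, adjusted p = 1.15e-06), and only 115 of the 15954 genes tested, itself included, had as high a fold change.

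Rrm1 (ENSMUSG00000030978.10, chromosome 7, 102441695 to 102469771, plus strand) had 278, 282, 263 and 154 CPM in FP replicates 1 to 4, and 39.9, 37.8 and 31.6 CPM in PBS replicates 1 to 3. FP replicate 4 was well below the other FP libraries but far above every PBS library. Rrm1 rose 6.70-fold (log2 2.74, SE 0.22, adjusted p = 1.93e-05). In mean CPM Rrm1 was above Rrm2 in both groups, at 244.5 against 189.5 CPM after FP and 36.5 against 8.32 CPM after PBS. All annotated exons cover 11012 bases for Rrm1 and 2771 for Rrm2. Per kilobase of these exons, Rrm2 measured 68.4 CPM after FP and 3.0 CPM after PBS. Rrm1 measured 22.2 CPM after FP and 3.31 CPM after PBS, so the order of these genes after FP depends on the length used.

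Rrm2b (ENSMUSG00000022292.15, chromosome 15, 37923952 to 37961318, minus strand), the alternative small subunit that p53 induces and that serves cells outside S phase, was the 1 enzyme that fell. It had 29.3, 25.7, 20.5 and 27.3 CPM in FP replicates 1 to 4, against 38.9, 33.2 and 36.1 CPM in PBS replicates 1 to 3. All FP libraries lay below all PBS libraries (log2 -0.49, SE 0.14, adjusted p = 0.0161). The call was lost without PBS replicate 1 (-0.40, adjusted p = 0.0744) or PBS replicate 3 (-0.49, adjusted p = 0.0574). Rrm2b lies across another annotated gene on its strand, Gm3362, without sharing exon bases.

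Thymidylate can be made from dUMP or recovered from thymidine, and the enzymes of both routes rose. Tyms (ENSMUSG00000025747.12, chromosome 5, 30058202 to 30073617, minus strand), which methylates dUMP with a folate carbon, had 92.5, 90.1, 99.8 and 63.9 CPM in FP replicates 1 to 4. Its PBS replicates 1 to 3 had 12.98, 13.1 and 11.7 CPM, and it rose 6.86-fold (log2 2.78, SE 0.16, adjusted p = 2.27e-06). Dut, which splits dUTP and so supplies dUMP while keeping uracil out of DNA, had 87.3, 89.4, 73.2 and 52.6 CPM after FP, against 19.7, 17.7 and 18.1 CPM after PBS. It rose 4.08-fold (log2 2.03, SE 0.18). In both genes FP replicate 4 was the lowest of its group and still above every PBS library.

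Tk1, the cytosolic thymidine kinase of the salvage route, had 61.9, 59.5, 80.6 and 54.1 CPM in FP replicates 1 to 4, and 19.3, 30.4 and 30.0 CPM in PBS replicates 1 to 3. It rose 2.40-fold (log2 1.27, SE 0.19), a smaller change than that of Tyms from a PBS level that was higher per kilobase (5.11 CPM for Tk1 and 2.07 CPM for Tyms). Tk1 shares 83 of its 5198 exon bases with Afmid on the other strand. Dtymk, the thymidylate kinase that both routes need, had 44.5, 45.2, 47.8 and 43.6 CPM after FP and 36.3, 40.4 and 37.7 CPM after PBS. The groups did not overlap, but the difference missed the threshold (log2 0.25, SE 0.09, adjusted p = 0.0587).

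Dck, which phosphorylates salvaged deoxycytidine and purine deoxynucleosides, had 97.9, 112, 113 and 89.5 CPM in FP replicates 1 to 4, against 45.9, 42.2 and 42.7 CPM in PBS replicates 1 to 3. It rose 2.36-fold (log2 1.24, SE 0.11, adjusted p = 2.05e-05). Samhd1 (ENSMUSG00000027639.16, chromosome 2, 157097533 to 157135265, minus strand) works against the others, since it breaks deoxynucleoside triphosphates down and is known as a restriction factor of viruses in resting and myeloid cells. It had 1534, 1648, 1819 and 1711 CPM in FP replicates 1 to 4, and 978, 1025 and 907 CPM in PBS replicates 1 to 3. Samhd1 rose 1.73-fold (log2 0.79, SE 0.10, adjusted p = 0.000253), while the macrophage and monocyte markers given above were lower after FP. Per kilobase it was the most abundant of the 35 transcripts in both groups, at 183 CPM after FP and 106 CPM after PBS.

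**Figure D2:**
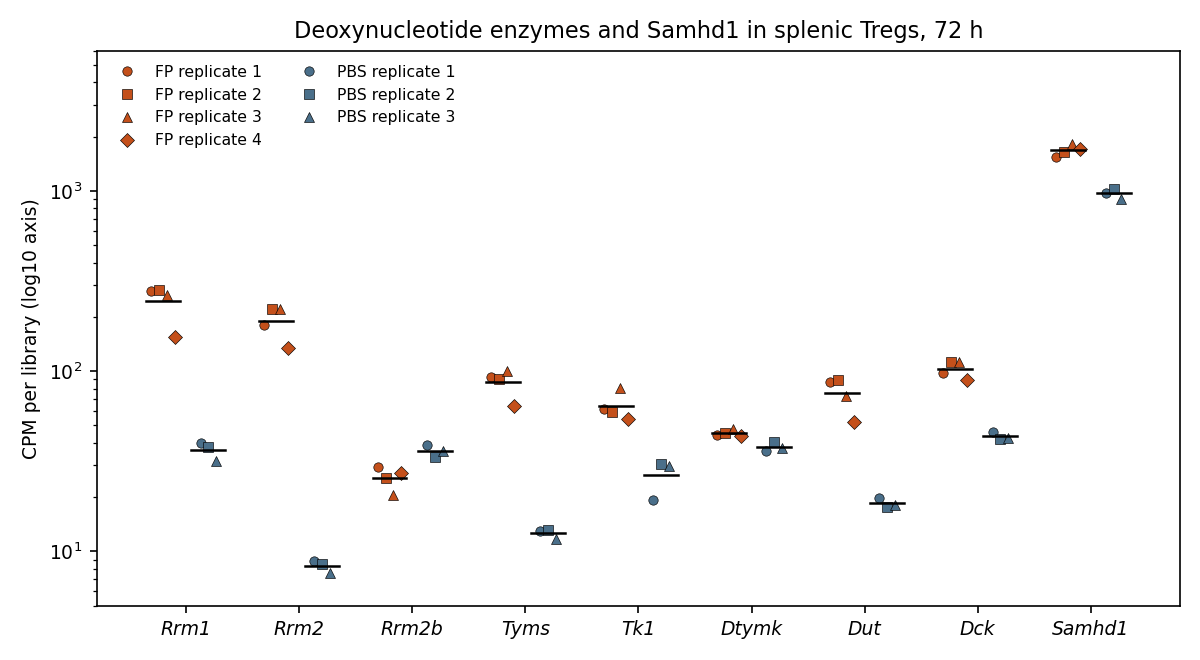
CPM of the 9 deoxynucleotide members in each library on a log10 axis, FP left of PBS for each gene, with bars at the group means. Rrm2 has the widest gap between the groups (135 to 221 CPM after FP, 7.62 to 8.83 CPM after PBS). Rrm2b is the member with FP below PBS, and Samhd1 lies above all others.

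Deoxynucleotide and de novo steps were set against each other within each library, where the scaling cancels. Summed counts of the 9 deoxynucleotide genes were 1.58, 1.69, 2.07 and 2.06 times those of the 17 de novo genes in FP replicates 1 to 4, and 1.11, 1.27 and 1.19 times in PBS replicates 1 to 3. The FP libraries were all above the PBS libraries, and the mean log2 ratio was 0.88 ± 0.20 after FP (n = 4, SD), against 0.25 ± 0.10 after PBS (n = 3, SD). Samhd1 made up 66.9 ± 4.51% of the deoxynucleotide counts after FP (n = 4, SD), against 81.5 ± 0.651% after PBS (n = 3, SD). Without it the log2 ratio was -0.81, -0.72, -0.53 and -0.86 in FP replicates 1 to 4, and -2.29, -2.14 and -2.13 in PBS replicates 1 to 3, a difference of 1.46. With each gene weighted equally, Samhd1 included, the difference was 1.28. No p is given for these sums, since the genes were chosen with results of these data known.

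Of the 5 pyrimidine genes, 3 rose and 2 did not pass. Cad, which carries out the opening steps of the pathway, had 113, 120, 122 and 88.1 CPM in FP replicates 1 to 4, against 80.7, 84.3 and 62.6 CPM in PBS replicates 1 to 3. It rose 1.46-fold (log2 0.55, SE 0.14, adjusted p = 0.0108), a call lost without PBS replicate 3 (0.42, adjusted p = 0.0568). Umps, which completes UMP, rose 1.58-fold (log2 0.66, SE 0.20, adjusted p = 0.0246), with FP replicate 4 (25.2 CPM) below PBS replicate 1 (26.9 CPM). The call of Umps was lost without each of FP replicate 1 (adjusted p = 0.0528), FP replicate 2 (0.0658), and PBS replicates 2 (0.0747) and 3 (0.109). Dhodh, the step of the pathway that sits on the mitochondrial inner membrane, went the other way without passing. It had 8.17, 11.7, 13.2 and 12.0 CPM in FP replicates 1 to 4 and 16.1, 15.8 and 14.2 CPM in PBS replicates 1 to 3 (log2 -0.44, SE 0.17, adjusted p = 0.0630).

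CTP is made from UTP by either of a pair of synthases. Ctps had 35.2, 35.6, 32.7 and 26.5 CPM in FP replicates 1 to 4 and 24.6, 20.1 and 20.9 CPM in PBS replicates 1 to 3, and rose by 0.57 (SE 0.14, adjusted p = 0.00848). Ctps2 averaged 90.8 ± 5.45 CPM after FP (n = 4, SD), against 98.2 ± 5.92 CPM after PBS (n = 3, SD), with overlapping groups (log2 -0.11, adjusted p = 0.325). Per kilobase Ctps2 remained the more abundant, at 19.2 CPM after FP and 20.8 CPM after PBS, beside 9.80 CPM after FP and 6.59 CPM after PBS for Ctps.

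Activated ribose comes from the synthetases Prps1 and Prps2, and neither passed. Prps1 averaged 35.5 ± 8.45 CPM after FP (n = 4, SD), against 26.3 ± 2.36 CPM after PBS (n = 3, SD; log2 0.43, adjusted p = 0.0893). Prps2 averaged 86.6 ± 12.1 CPM after FP and 73.0 ± 5.3 CPM after PBS (log2 0.25, adjusted p = 0.120). In Prps1 FP replicate 4 had 24.3 CPM, below all 3 PBS libraries, while the other FP libraries had 33.6 to 42.4 CPM. Without FP replicate 4 both passed as higher (Prps1 0.58, adjusted p = 0.00396; Prps2 0.32, adjusted p = 0.0322).

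Of the 6 genes that build the purine ring 5 rose, and Paics stood out. Paics (ENSMUSG00000029247.17, chromosome 5, 76951307 to 76967509, plus strand), which joins carbon dioxide and aspartate to the growing ring, had 187, 177, 131 and 103 CPM in FP replicates 1 to 4. It had 72.9, 63.9 and 56.8 CPM in PBS replicates 1 to 3 and rose 2.32-fold (log2 1.21, SE 0.20, adjusted p = 0.00132). Atic, which closes the ring to IMP, had 146, 138, 111 and 111 CPM after FP and 92.9, 87.3 and 75.8 CPM after PBS, and rose by 0.57 (SE 0.12, adjusted p = 0.00494). Pfas rose by 0.50 (SE 0.10, adjusted p = 0.00339).

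Gart, which catalyses several ring steps, and Adsl, a lyase used in the ring and again on the way to AMP, both rose by 0.35 (adjusted p = 0.0307 and 0.0210). The call of Adsl was lost without PBS replicate 2 (adjusted p = 0.0643) or PBS replicate 3 (0.112). That of Gart was lost without FP replicate 1 (adjusted p = 0.0504), FP replicate 2 (0.0711), FP replicate 3 (0.0528), and PBS replicates 2 (0.0887) and 3 (0.124). Gart shares 1014 of its 5144 exon bases with Gm15964 on the other strand.

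Ppat (ENSMUSG00000029246.14, chromosome 5, 76913249 to 76951578, minus strand), the committed step of purine synthesis, lies head to head with Paics, and their exons share 272 bases on opposite strands. Ppat had 68.0, 70.1, 55.6 and 50.6 CPM in FP replicates 1 to 4 and 54.8, 46.5 and 42.9 CPM in PBS replicates 1 to 3. FP replicate 4 lay below PBS replicate 1, and the gene did not pass (log2 0.34, SE 0.14, adjusted p = 0.0707), though it did without FP replicate 4 (0.42, adjusted p = 0.0165) or PBS replicate 1 (0.47, adjusted p = 0.0311). The log2 ratio of Paics to Ppat, looked at after their values were seen and so not tested, was 1.46, 1.33, 1.24 and 1.03 in FP replicates 1 to 4 and 0.41, 0.46 and 0.40 in PBS replicates 1 to 3. The neighbours thus had unequal changes in each FP library.

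At the branch from IMP, Gmps, which completes GMP, rose by 0.60 (SE 0.14, adjusted p = 0.00612), with 133, 113, 96.0 and 88.3 CPM in FP replicates 1 to 4 and 75.9, 66.4 and 70.3 CPM in PBS replicates 1 to 3. Adss, which commits IMP to AMP, had 186, 199, 157 and 159 CPM after FP and 131, 108 and 116 CPM after PBS, and rose by 0.57 (SE 0.11, adjusted p = 0.00280). The IMP dehydrogenases, which open the path to GMP and are the target of mycophenolate, did not pass. Impdh2, the isoenzyme known to be induced in dividing lymphocytes, averaged 90.9 ± 21.3 CPM after FP (n = 4, SD), against 64.5 ± 7.17 CPM after PBS (n = 3, SD; log2 0.49, adjusted p = 0.0552). It had 98.5 to 107 CPM in FP replicates 1 to 3 but 59.6 CPM in FP replicate 4, and passed without that library (0.65, adjusted p = 0.000445) or without PBS replicate 1 (0.61, adjusted p = 0.0434). Impdh1 averaged 55.2 ± 7.77 CPM after FP (n = 4, SD), against 62.3 ± 4.88 CPM after PBS (n = 3, SD; log2 -0.18, adjusted p = 0.273).

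Of the kinases that raise nucleotides to di- and triphosphates, 3 of 4 rose. Nme1, a nucleoside diphosphate kinase, had 57.6, 60.2, 43.4 and 32.9 CPM in FP replicates 1 to 4 and 23.8, 17.2 and 17.8 CPM in PBS replicates 1 to 3, and rose 2.47-fold (log2 1.31, SE 0.22, adjusted p = 0.00126). Its neighbour Nme2 rose by 0.96 (SE 0.28, adjusted p = 0.0216), at 8.2 ± 2.49 CPM after FP (n = 4, SD), against 4.18 ± 0.973 CPM after PBS (n = 3, SD). The call of Nme2 was lost without FP replicate 1 (adjusted p = 0.0520), FP replicate 2 (0.0534), and PBS replicates 2 (0.0533) and 3 (0.0962). Both overlap the read-through gene Gm20390, listed at 0 in every library, which shares 418 of the 3342 exon bases of Nme1 and 573 of the 1171 of Nme2, so their levels are uncertain.

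Cmpk1, the kinase of UMP and CMP, had 75.9, 69.3, 47.6 and 57.8 CPM after FP and 37.6, 30.6 and 33.8 CPM after PBS, and rose 1.84-fold (log2 0.88, SE 0.16, adjusted p = 0.00174). Guk1, the guanylate kinase, averaged 14 ± 2.96 CPM after FP (n = 4, SD), against 13.5 ± 1.61 CPM after PBS (n = 3, SD). The difference of 0.05 on the log2 scale (adjusted p = 0.848) turned to -0.07 without FP replicate 1 and to -0.03 without PBS replicate 3, and to -0.16 (upper quartile) and -0.23 (library size alone).

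Among the folate enzymes the 3 that work in mitochondria rose and the 2 of the cytosol did not pass. The compartments were not tested against each other as groups. The ratios of Shmt1 to Shmt2 and of Mthfd1 to Mthfd1l, given below, did not pass (exact permutation test, adjusted p = 0.229 and 0.100). Mthfd2 (ENSMUSG00000005667.8, chromosome 6, 83305691 to 83325908, minus strand), a mitochondrial dehydrogenase known from dividing and embryonic cells, had 75.2, 92.1, 82.9 and 71.9 CPM in FP replicates 1 to 4. It had 39.4, 35.2 and 36.2 CPM in PBS replicates 1 to 3, with no overlap, and rose 2.18-fold (log2 1.13, SE 0.11, adjusted p = 4.78e-05). Shmt2, which takes the one-carbon unit from serine, rose by 0.53 (SE 0.16, adjusted p = 0.0208), and Mthfd1l, which releases it as formate, by 0.49 (SE 0.15, adjusted p = 0.0221). In both the lowest FP library was below the highest PBS library. The call of Shmt2 was lost without FP replicate 2 (adjusted p = 0.0557), and PBS replicates 2 (0.0570) and 3 (0.102). For Mthfd1l this held without FP replicates 2 (adjusted p = 0.0585) and 3 (0.0509), and PBS replicates 2 (0.0577) and 3 (0.100).

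Of the cytosolic enzymes, Shmt1, the cytosolic serine hydroxymethyltransferase, averaged 27.2 ± 4.08 CPM after FP (n = 4, SD), against 20.8 ± 1.98 CPM after PBS (n = 3, SD; log2 0.38, adjusted p = 0.0619). Mthfd1, which interconverts the folate forms used for purines and thymidylate, averaged 57.4 ± 7.79 CPM after FP (n = 4, SD), against 47.5 ± 2.27 CPM after PBS (n = 3, SD; log2 0.27, adjusted p = 0.0954). With FP replicate 4 left out both rose (Shmt1 0.47, adjusted p = 0.0108; Mthfd1 0.36, adjusted p = 0.0113).

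FP replicate 4 was the lowest FP library in 29 of the 35 enzymes and the highest in 0, while over all genes tested it was the lowest in 31.9%. The median log2 difference from the PBS mean over the 9 deoxynucleotide genes was 1.24, 1.36, 1.62 and 1.05 in FP replicates 1 to 4. Over the 17 de novo genes it was 0.59, 0.67, 0.38 and 0.14, and over the 5 folate genes 0.66, 0.64, 0.54 and 0.07. FP replicate 4 thus had the lowest FP median in each of these roles. With Samhd1 left out, the deoxynucleotide median was 1.74, 1.81, 1.80 and 1.27 in FP replicates 1 to 4. The deoxynucleotide difference was larger than the de novo and folate differences in every FP library, and in FP replicate 4 it stayed well above the PBS libraries. The median of the 4 kinases was 1.26 in FP replicate 1, just above that of the 9 deoxynucleotide genes (1.24). In FP replicates 2 to 4 the kinase median was below the deoxynucleotide median. The de novo and folate medians of FP replicate 4 lay near the PBS libraries, whose own medians ran from -0.11 to 0.12 (de novo) and from -0.14 to 0.08 (folate). Whether the drop in FP replicate 4 differed between roles was not tested. Its proliferation markers were also the lowest of the FP libraries (2585 CPM), and the part of dividing cells in these differences was not tested. Without this library 30 enzymes rose and 1 fell, the added calls being Dtymk, Prps1, Prps2, Ppat, Impdh2, Shmt1 and Mthfd1.

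**Figure D3:**
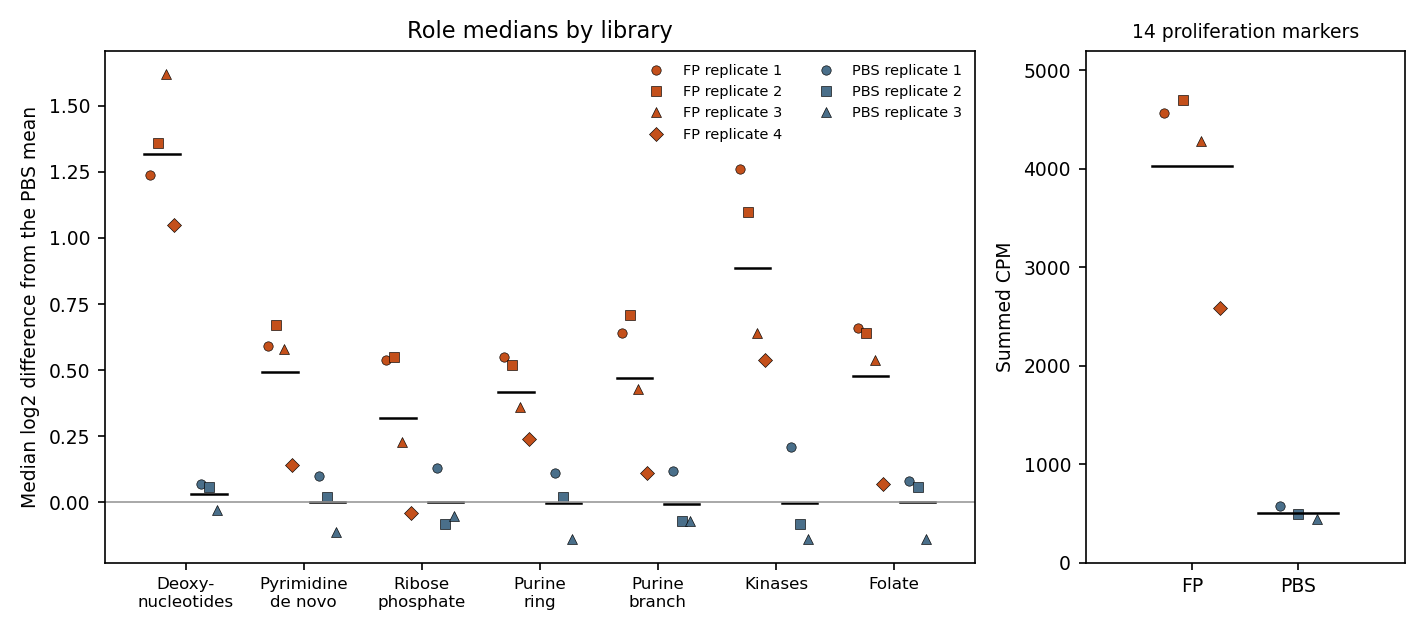
Left, the median log2 difference from the PBS mean over the genes of each role, by library, FP left of PBS, with bars at the group means. Right, summed CPM of 14 proliferation markers. FP replicate 4 (diamonds) is the lowest FP library in every role and in the markers (2585 CPM), and its deoxynucleotide median (1.05) is still far above the PBS libraries.

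Isoenzymes for 1 step can change unequally, which was asked for 7 pairs with the log2 ratio of their counts within a library. An exact two-sided permutation test over the 35 assignments of the 7 libraries was used, whose smallest possible p is 0.0286. After adjustment over the 7 pairs, a pair could pass only if most of the pairs reached this smallest p. No pair passed, which with so few libraries does not show that the ratios were unchanged. The enzymes were chosen with earlier results of these data known, so the p values of the pairs are not independent support. The ratio of Rrm2 to Rrm2b was 2.63, 3.11, 3.42 and 2.31 in FP replicates 1 to 4, and -2.13, -1.96 and -2.24 in PBS replicates 1 to 3. The order of the 2 small subunits of the reductase in counts was thus opposite in the groups, with a difference of 4.97 (permutation p = 0.0286, adjusted 0.100). Per kilobase of all annotated exons (9134 bases for Rrm2b, 2771 for Rrm2), Rrm2b measured 2.81 CPM after FP and 3.95 CPM after PBS. Rrm2 measured 68.4 CPM after FP and 3.0 CPM after PBS.

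For Ctps to Ctps2 the mean log2 ratio was -1.49 ± 0.11 after FP (n = 4, SD), against -2.17 ± 0.12 after PBS (n = 3, SD), a difference of 0.68 (exact permutation p = 0.0286, adjusted 0.100). Impdh1 to Impdh2 had -0.94, -0.72, -0.78 and -0.34 in FP replicates 1 to 4 and -0.14, 0.05 and -0.06 in PBS replicates 1 to 3, a difference of -0.65 without overlap (exact permutation p = 0.0571, adjusted 0.100). Mthfd1 to Mthfd1l differed by -0.22 (exact permutation p = 0.0571, adjusted 0.100). The ratios of the other pairs overlapped between the groups: Nme1 to Nme2 differed by 0.34 (exact permutation p = 0.0857), Prps1 to Prps2 by 0.16 (0.2) and Shmt1 to Shmt2 by -0.15 (0.229).

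**Figure D4:**
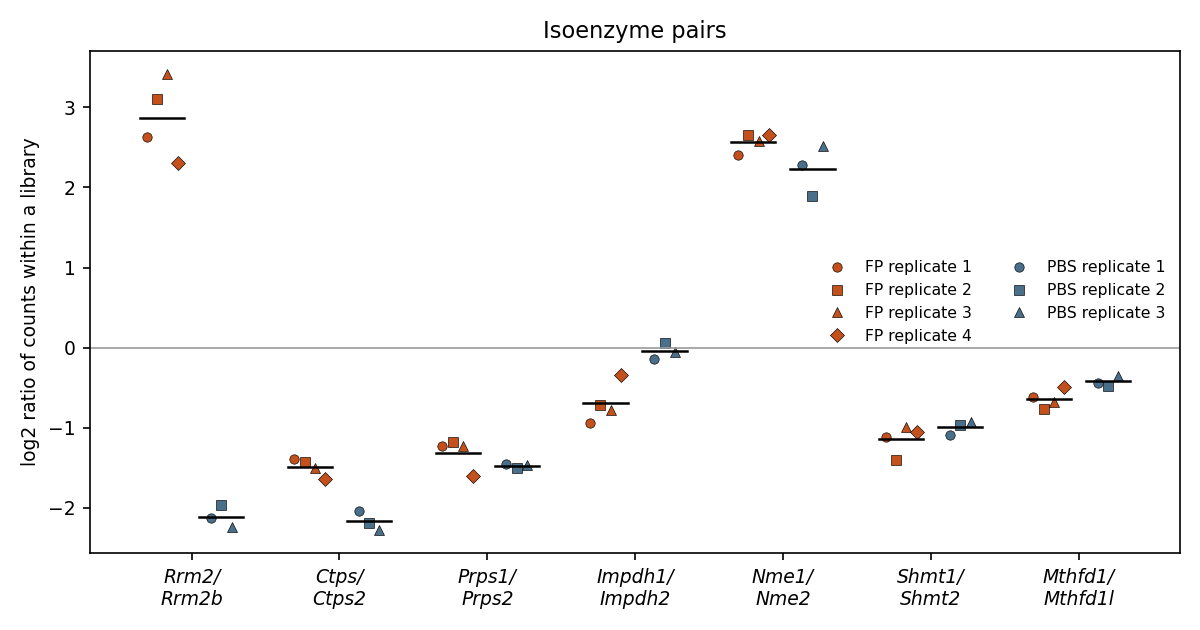
Log2 ratio of the counts of 2 isoenzymes within each library, FP left of PBS for each of 7 pairs, with bars at the group means. Rrm2/Rrm2b lies above 0 in all FP libraries (2.31 to 3.42) and below 0 in all PBS libraries (-2.24 to -1.96), while the other pairs differ by less than 0.7.

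The neighbouring genes of these pathways, 87 in a fixed list of which 85 were matched and 64 tested, were also measured. Of the 64, 22 rose, 11 fell and 31 did not pass; their median was 0.15 on the log2 scale. The 11 that fell were near the background share, as 18.5% of all genes tested were lower, with 21.0% higher; the counts of the smaller lists that follow stand beside the same shares and are descriptions, with no test against other genes. In the deoxynucleotide group 5 of 10 rose and 2 fell. Dctpp1, which clears unwanted dCTP analogues, averaged 21.5 ± 9.29 CPM after FP (n = 4, SD), against 3.74 ± 0.516 CPM after PBS (n = 3, SD), and rose by 2.50 (SE 0.37). Cmpk2, a kinase induced by interferon, rose by 1.72 and the nucleotidase Nt5c by 0.88. The genes that fell were Tk2 and Dguok, the deoxynucleoside kinases of mitochondria. Tk2 averaged 39.7 ± 1.71 CPM after FP and 62.9 ± 2.51 CPM after PBS (log2 -0.66, adjusted p = 0.000298), and Dguok 20.3 ± 1.66 CPM after FP and 31.4 ± 2.51 CPM after PBS (log2 -0.63, adjusted p = 0.00221; SD, n = 4 FP and 3 PBS).

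In the folate and serine group 7 of 18 genes rose, 3 fell and 8 did not pass; the 3 that fell are near the 18.5% of all genes that were lower. Psat1 and Phgdh, which make serine from a glycolytic intermediate, rose by 1.49 and 1.32. The genes Mthfs, Mthfsd and Fpgs fell by 0.62, 0.51 and 0.76 on the log2 scale.

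Of the 8 salvage genes tested 3 rose, 1 fell and 4 did not pass, beside 21.0% higher and 18.5% lower over all genes. The hypoxanthine-guanine salvage enzyme Hprt averaged 114 ± 36.5 CPM after FP (n = 4, SD), against 42.8 ± 4.09 CPM after PBS (n = 3, SD), and rose by 1.41 (SE 0.23, adjusted p = 0.00153). The uridine-cytidine kinase Uck2 rose by 0.85 and the adenine salvage enzyme Aprt by 0.79, while Uckl1 fell by 0.44. In the degradation group 4 of 10 rose, 1 fell and 5 did not pass. Gda, the guanine deaminase, rose by 2.06 at 5.91 ± 0.859 CPM after FP (n = 4, SD), against 1.42 ± 0.515 CPM after PBS (n = 3, SD). Adenosine deaminase, Ada, rose by 1.03 and Xdh by 0.60, and the AMP deaminase Ampd3 fell by 0.31.

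Among other kinases 2 of 10 rose and 8 did not pass, a share near the 21.0% of all genes that were higher. The adenylate kinase Ak6 rose by 1.02, and it shares 1637 exon bases, counted over each overlapping gene, with Taf9 and Rad17. Of the 8 transporters tested 4 fell, 1 rose and 3 did not pass, where 18.5% of all genes were lower and 21.0% higher, and their median was -0.35. The nucleoside transporters Slc29a3 and Slc28a2 fell by 0.56 and 0.35 and the mitochondrial pyrimidine nucleotide carrier Slc25a36 by 0.52, while the nucleoside transporter Slc29a1 rose by 0.48. Slc29a3 averaged 45.7 CPM in the PBS libraries, in which the summed macrophage and monocyte markers were also higher (953 to 2337 CPM, against 46.7 to 188 CPM after FP), and their part in the lower transporter levels was not tested.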

How the data were processed

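RNA of sorted splenic Tregs was measured in 4 FP and 3 PBS libraries. Per the labels' protocols, libraries were made from total RNA with ribosomal RNA removed. The authors mapped reads to GRCm38 with STAR (2.5.0 in the design text, 2.5.0b in the submitters' processing notes) and deposited raw counts per GENCODE gene from featureCounts 1.5.0. The strand setting and the handling of reads with several matches are not given in the sources used here.

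Symbols came from a gene name table (50376 of 51138 identifiers), and coordinates, exon lengths and overlaps from a newer GENCODE release of the same build. The exon length of a gene covers every exon annotated to it, whichever transcript uses it. Of the 35 enzymes 20 overlap another gene and 12 share exon bases with one, which can cost or add counts. Counts were filtered with filterByExpr, scaled with TMM factors and tested with edgeR 4.0.16 (R 4.3.3), robust quasi-likelihood, FP against PBS; DESeq2 1.42.0 and limma 3.58.1 were alternatives. Isoenzyme ratios used counts plus 0.5. The fit was run on simulated data with far fewer changed genes than were called here. That run does not probe how the calls depend on the scaling. Libraries of a group differed from each other by more than counting noise, so none was taken as a repeat deposit of another; this does not show that they came from different animals. All 35 enzymes are named; of the other pathway genes, up to 3 per list and direction with the smallest p, except that results on 2 genes are not reported here. The enzymes and lists were chosen with earlier results of these data known. A protein comparison of 1 isoenzyme pair was planned and is not analysed here.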

Additional observations from a re-analysis of the deposited data

Results flagged for a closer look

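The values of 2 results stood apart from the other 3 FP libraries by Dixon's test at the 95% level, among 43 sets of 4 FP values checked; chance flags about 1 in 20 such sets. Rrm1 had 154 CPM in FP replicate 4, against 263 to 282 CPM in the other FP libraries and 31.6 to 39.9 CPM in the PBS libraries. The log2 ratio of Prps1 to Prps2 was -1.6 in FP replicate 4, against -1.23 to -1.18 in the other FP libraries and -1.51 to -1.45 in the PBS libraries.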

How the results depend on the processing

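The median of the deoxynucleotide genes stayed between 1.2 and 1.38 and that of the de novo genes between 0.41 and 0.57 when each library was left out; with library size alone they were 0.99 and 0.21. Leaving out each library gave 16 to 30 enzymes higher, 0 to 1 lower, 4088 to 7277 genes called in all, a deoxynucleotide to de novo difference of 0.57 to 0.70 and 4 to 5 isoenzyme pairs without overlap. The count of all called genes was 4088 without PBS replicate 3, and Rrm2b was not called without PBS replicate 1 or PBS replicate 3, leaving 0 lower. With library size alone 15 enzymes were higher and 4 lower, and with upper-quartile factors 4 were lower. Without the enzymes that overlap another gene 10 were higher and 0 lower, out of 15 that remain. The deoxynucleotide to de novo difference was 0.63, 1.28 with genes weighted equally and, as chosen after seeing the data, 1.46 without Samhd1.

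Single enzymes that did not pass changed sign as follows: Dtymk (-0.021), Prps2 (-0.033) and Mthfd1 (-0.008) with library size alone, and Guk1 with upper-quartile factors (-0.16), library size alone (-0.23), and between -0.073 and 0.168 over the left-out libraries, below 0 without FP replicate 1 or PBS replicate 3 (-0.03). The cause was not tested. Of the results of single enzymes under the alternatives, 479 kept direction and side of the threshold, 36 passed newly, 38 were lost and 7 changed sign. With FP replicates 1 to 3 and PBS replicates 1 to 3, the replicate block gave 29 higher and 2 lower (Rrm2b and Dhodh), against 30 and 1 without the block. The fit without the block is the same as that without FP replicate 4, so the counts of single-enzyme results above hold it under both names. Deviations of same-numbered libraries correlated at 0.22, 0.07 and 0.10 over 15954 genes, and FP replicate 2 correlated best with PBS replicate 1, so the numbers were not taken as pairs. Depth was 9956509 to 13429878 counts, and no enzyme was limited by a count of 0.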
